A study of Mus musculus with 6 samples.

Results

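Claudins are the membrane proteins that form the strands of tight junctions, and the set described here is the 10 claudin genes that mark successive parts of the nephron and its vessels: Cldn1, Cldn2, Cldn3, Cldn4, Cldn5, Cldn7, Cldn8, Cldn10, Cldn16 and Cldn19. They were chosen by symbol, and each symbol matched 1 of the 56923 gene identifiers in the count tables. All 10 were counted in every library and passed the filter on low counts that left 18273 genes for testing. RNA sequencing measured them in 6 whole, snap-frozen mouse kidneys, 3 controls and 3 knockouts. Controls were Pkd1flox/flox.Tet-O-Cre males, which carry floxed Pkd1 alleles and the doxycycline-dependent Cre transgene but no activator. Knockouts (Pkd1 KO) were Pkd1flox/flox.Pax8rtTA.Tet-O-Cre males, in which the Pax8 promoter drives that activator in tubule epithelium, which leaves vessels and stroma untargeted. Both groups drank doxycycline (2 mg/ml in 5% sucrose) for 14 days from postnatal day 28 to 42, and kidneys were taken at 10 weeks. Pkd1 encodes polycystin-1, whose loss from tubule cells gives polycystic kidneys.

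Claudins bridge neighbouring cells at the tight junction and set which ions, and how much water, can pass between the cells rather than through them. Some act as seals and others as pores that select for cations or anions. Each stretch of the nephron carries its own mixture: the leaky proximal tubule carries pore-forming claudins, the thick ascending limb carries the claudins through which calcium and magnesium are reabsorbed, and the tight collecting duct carries sealing claudins and a chloride route. Their intracellular ends bind scaffold proteins such as the zonula occludens proteins, which tie the junction to the actin skeleton.

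The libraries held 45020173 to 62983791 gene counts, and control 1 was sequenced in 2 runs that were summed. All 3 controls came from 1 sequencing project and all 3 Pkd1 KO libraries from another, and a difference between projects cannot be told apart from one between genotypes. Each library is labelled as its own kidney, with nothing more on the animals, so the p-values measure the spread between these samples, which may be technical. Pkd1 itself had 23.6 to 46.4 CPM (counts scaled to a common library size) in the controls and 8.77 to 10.01 in the knockouts, a log2 fold change of −1.85 ± 0.24 (SE), which was −0.34 (adjusted p = 0.0644) in an edgeR fit with offsets for GC content and exon length. That offset fit is given beside each claudin because fold changes ran with both properties. The median log2 fold change was 0.49 in the fifth of genes lowest in GC content and −0.51 in the fifth highest. It was 0.55 in the fifth with the fewest exonic bases per gene and −0.44 in the fifth with the most. In whole-kidney RNA, fewer cells of a type and less RNA per cell cannot be told apart.

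Of the 10 claudins, Cldn1 and Cldn10 rose in the Pkd1 KO kidneys, none fell, and 8 did not pass the test. Calls are those of edgeR's quasi-likelihood test with Benjamini-Hochberg adjustment at 0.05 over all genes tested. The same test called 46.9% of all tested genes, 22.7% higher and 24.2% lower, against 20% of the claudins. DESeq2 called 1 claudin lower, Cldn2, and 1 claudin was lower at an unadjusted p under 0.05 in edgeR, also Cldn2. The 10 fold changes were split evenly, 5 positive and 5 negative, with a median log2 fold change of −0.02 against 0.03 over all tested genes. CPM values of the groups did not overlap for 4 of the 10 claudins (Cldn1, Cldn2, Cldn5 and Cldn10), where 61.2% of all tested genes had groups that did not overlap. The summed CPM of the 10 claudins was 947 to 1166 in the controls and 1074 to 1180 in the knockouts, ranges that overlap. In the fit with offsets, which called 34.5% of 17785 genes, 17.1% higher and 17.3% lower, Cldn10 stayed higher and Cldn2, Cldn8 and Cldn16 were called lower.

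**Figure D1:**
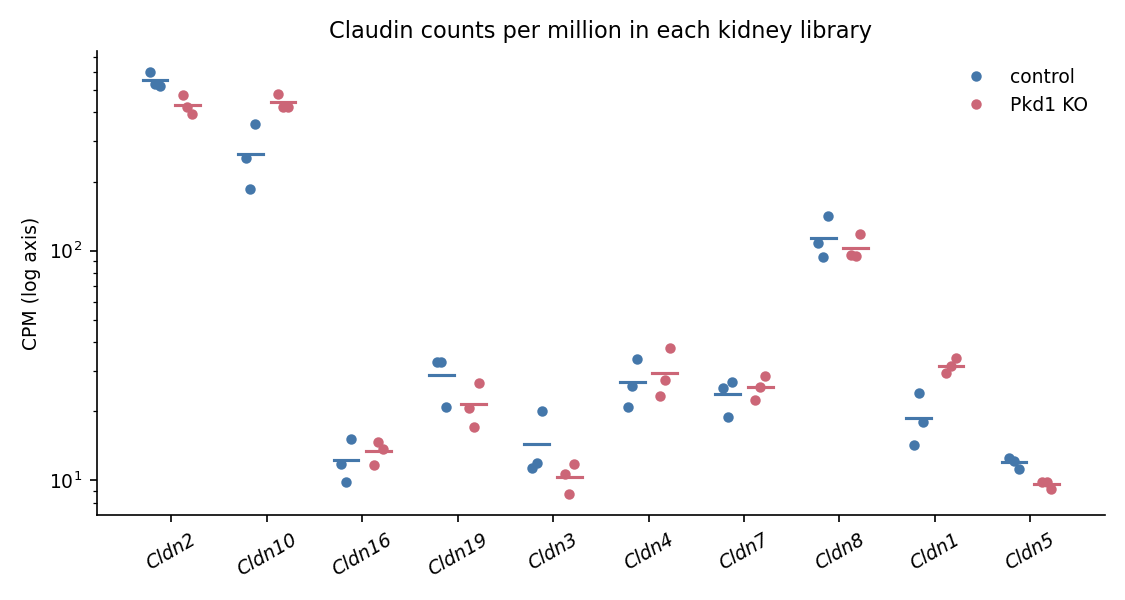
CPM of each claudin (log axis) in 3 control and 3 Pkd1 KO kidneys; each point is a library and each bar a group mean. Cldn1 and Cldn10 lie higher in all 3 knockouts than in all 3 controls, Cldn2 and Cldn5 lie lower, and the groups of the other 6 claudins overlap.

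Cldn10 rose in both fits. Its gene gives variants from separate first exons, an anion-selective form known from the proximal tubule and a cation-selective form known from the thick ascending limb, and the counts per gene cannot separate them. It had 253, 186 and 356 CPM in the controls and 481, 421 and 424 CPM in the knockouts. All 3 knockouts lay above the highest control, and the controls were the more widely spread group. Means were 265 ± 85.5 and 442 ± 33.98 CPM (SD, n = 3 each), 1.67-fold higher, with a log2 fold change of 0.74 ± 0.23 (95% interval 0.22 to 1.26, adjusted p = 0.0262 in edgeR). With the offsets the change was 0.54 ± 0.18 (adjusted p = 0.0419 in edgeR), and that call held in 1 of 6 fits with a library left out, the one without control 3 (0.73), and was lost in the others (0.38 to 0.57, adjusted p from 0.0646 to 0.135). The call was lost without control 1 (0.68, adjusted p = 0.0948), KO 1 (0.67, 0.0899), KO 2 (0.77, 0.0704) or KO 3 (0.77, 0.0615). It was also lost with offsets drawn from a local quadratic loess (0.49, adjusted p = 0.0636).

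Cldn10 starts at separate sites, and the 250 bases before 2 of them are shown because they differ so much in base composition, followed by the window of Cldn2, the other abundant proximal claudin. Windows are RefSeq's, on build GRCm38.p6, 5′ to 3′ on the gene's strand, and capitals mark the strings searched: TATAAA, the core of a TATA box, GGGCGG, known as the GC box, and CAGGTG, known as an E-box, each on both strands, none of them containing another.
Cldn10, upstream start, chr14:118787621-118787870 (+): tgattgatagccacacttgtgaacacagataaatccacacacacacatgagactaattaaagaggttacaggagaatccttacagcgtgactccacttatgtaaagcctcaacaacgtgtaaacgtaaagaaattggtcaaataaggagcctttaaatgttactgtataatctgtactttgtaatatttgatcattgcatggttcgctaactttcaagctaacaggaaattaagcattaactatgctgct
Cldn10, downstream start, chr14:118854700-118854949 (+): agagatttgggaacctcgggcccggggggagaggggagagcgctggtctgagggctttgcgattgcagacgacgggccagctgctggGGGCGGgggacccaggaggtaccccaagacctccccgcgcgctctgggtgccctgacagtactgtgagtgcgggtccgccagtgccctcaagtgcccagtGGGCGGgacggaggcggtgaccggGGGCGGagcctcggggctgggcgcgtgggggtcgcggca
Cldn2, chrX:139800558-139800807 (+): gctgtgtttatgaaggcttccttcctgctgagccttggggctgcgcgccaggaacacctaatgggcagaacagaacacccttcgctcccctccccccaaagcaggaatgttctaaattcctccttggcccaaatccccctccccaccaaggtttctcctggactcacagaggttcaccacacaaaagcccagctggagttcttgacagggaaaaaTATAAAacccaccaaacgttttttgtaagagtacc
The upstream Cldn10 window is 36% G and C and holds none of the 3 strings. The downstream window is 72.4% G and C and holds GGGCGG 3 times. The Cldn2 window is 52% G and C and holds TATAAA once, which is found in 12.4% of 32851 such windows of the genome, while GGGCGG is found in 32.7% and CAGGTG in 17.2%. The counts do not say which Cldn10 start was used.

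Cldn2, the cation- and water-permeable claudin of the proximal tubule, was the most abundant claudin of the controls and pointed the other way. It had 601, 533 and 523 CPM in the controls and 474, 422 and 395 CPM in the knockouts. Every knockout lay below every control, and within each group the values lay close together. Means were 552 ± 42.3 and 430.5 ± 40.3 CPM (SD, n = 3 each), with a log2 fold change of −0.36 ± 0.15 (95% interval −0.70 to −0.02) that did not pass the test (adjusted p = 0.0749 in edgeR). It passed without control 2 (−0.42, adjusted p = 0.0385), without control 3 (−0.45, adjusted p = 0.0310), in DESeq2 (−0.38, adjusted p = 0.0304) and with the offsets (−0.50, adjusted p = 0.0227). The call with the offsets was lost without control 1 (−0.43, adjusted p = 0.101), KO 2 (−0.48, 0.0981) or KO 3 (−0.44, 0.101).

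Because Cldn2 and Cldn10 pointed in opposite directions, their ratio within each library moved further than either gene. The log2 ratio of Cldn2 to Cldn10 was 1.25, 1.52 and 0.56 in the controls and −0.02, 0.002 and −0.10 in the knockouts. The groups did not overlap, with a difference of −1.15 (exact permutation test, two-sided, p = 0.1, the smallest that 3 against 3 allows, and 0.2 after adjustment over the 6 ratios computed). A ratio within a library is free of the scaling between libraries, and it shows unequal change without saying which gene changed. It is not free of the trend with GC content and exon length, and no ratio was computed with that trend taken off.

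Most markers of the proximal tubule were called lower. Of the 12 proximal tubule markers 9 fell and 1 rose, where 24.2% of all tested genes were called lower and 22.7% higher, with a median log2 fold change of −0.89, and all 12 were counted in every library. Their summed level was 18373 to 24733 CPM in the controls and 11362 to 13989 CPM in the knockouts. Slc13a3, a dicarboxylate transporter, fell by 2.24 and Cubn, the endocytic receptor cubilin, fell by 1.87 on the log2 scale. Slc5a12, a lactate transporter, rose by 0.62, a call that ended with the offsets (0.11, adjusted p = 0.696 in edgeR) and without control 1 (0.63), control 3 (0.44), KO 1 (0.65) or KO 2 (0.46). The part that the number or state of proximal tubule cells had in the values of Cldn2 and Cldn10 was not tested.

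The thick ascending limb pair Cldn16 and Cldn19, whose products associate and whose human counterparts cause familial loss of magnesium and calcium when mutated, did not pass the test. Cldn16 had 11.8, 9.87 and 15.1 CPM in the controls and 11.7, 14.7 and 13.7 CPM in the knockouts. The groups overlapped fully, with a log2 fold change of 0.13 ± 0.19 (95% interval −0.30 to 0.56, adjusted p = 0.600 in edgeR). The direction turned with the offsets, where Cldn16 was called lower at −0.49 ± 0.13 (adjusted p = 0.0196), and it turned without control 2 (−0.04, adjusted p = 0.877). The lower call with the offsets was lost without control 1 (−0.48, adjusted p = 0.0632), KO 1 (−0.40, 0.0896), KO 2 (−0.52, 0.0589) or KO 3 (−0.49, 0.0710).

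Cldn19 had 32.7, 32.6 and 20.9 CPM in the controls and 20.7, 17.2 and 26.6 CPM in the knockouts. Control 3 stood with the knockouts, and KO 3 stood above control 3. The log2 fold change was −0.42 ± 0.22 (95% interval −0.93 to 0.09, adjusted p = 0.149 in edgeR), −0.65 without control 3 (adjusted p = 0.0144) and −0.02 with the offsets (adjusted p = 0.937). The count that ignores strand left out 18.2% of the Cldn19 reads that the strand columns assign, so its level may be an underestimate. In GENCODE M21 a gene on the opposite strand, Gm12927, overlaps 90 of its exonic bases. Whether that overlap accounts for the loss was not tested, and the annotation used for the counts is not given. The log2 ratio of Cldn16 to Cldn19 differed by 0.56 between groups that overlapped (exact permutation p = 0.3).

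Cldn3, a sealing claudin found from the thick ascending limb to the collecting duct, had 11.3, 11.9 and 20.0 CPM in the controls and 10.7, 8.71 and 11.8 CPM in the knockouts. Control 3 stood alone above the other 5 libraries. The log2 fold change was −0.47 ± 0.24 (95% interval −1.01 to 0.07, adjusted p = 0.133 in edgeR), and it passed only without control 2 (−0.62, adjusted p = 0.0403) among the alternatives run. With the offsets it was −0.28 (adjusted p = 0.310).

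Of the 10 thick ascending limb markers tested, 7 fell and none rose, where 24.2% of all tested genes were called lower and 22.7% higher. The markers' median log2 fold change was −0.92. The list includes Cldn14, itself a claudin of very low count, whose values enter the marker mean used further below. None of the 10 markers was called higher by DESeq2 or at an unadjusted p under 0.05 either. Their summed level was 4412 to 5966 CPM in the controls and 2132 to 2541 CPM in the knockouts, and all 10 were counted in every library. Casr, the calcium-sensing receptor that regulates claudin permeability in this segment, fell by 2.40 on the log2 scale, and Egf, a growth factor made there in quantity, fell by 1.89. The log2 ratio of Cldn10 to Cldn16, both pore claudins of the limb, was 0.65 higher in the knockouts, with groups apart (exact permutation p = 0.1, adjusted p = 0.2).

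Without the offsets, the collecting duct claudins Cldn4, Cldn7 and Cldn8 differed by less than the spread between libraries. With the offsets Cldn8 was called lower, as described below. Cldn4 and Cldn8 act together as the chloride route of the principal cell, and Cldn7 sits at the basolateral side as well as in the junction. Cldn4 had 20.8, 25.7 and 33.9 CPM in the controls and 23.3, 27.5 and 37.6 CPM in the knockouts. In both groups the libraries spread over the same range, with a log2 fold change of 0.14 ± 0.23 (95% interval −0.38 to 0.66, adjusted p = 0.640 in edgeR), which turned without control 1 (−0.04) or KO 3 (−0.08). Cldn7 had 25.3, 18.9 and 26.8 CPM in the controls and 22.5, 25.6 and 28.5 CPM in the knockouts, with a log2 fold change of 0.11 ± 0.17 (95% interval −0.28 to 0.50, adjusted p = 0.625 in edgeR). Control 2 was the lowest of the 6 libraries for Cldn7, and without it the direction turned (−0.06). Each interval spans 0.

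Cldn8, the most abundant of the collecting duct claudins per kilobase, had 108, 93.6 and 141 CPM in the controls and 96.2, 95.1 and 118 CPM in the knockouts. The knockouts lay within the range of the controls, and the log2 fold change was −0.15 ± 0.18 (95% interval −0.56 to 0.26, adjusted p = 0.526 in edgeR). It changed most of all claudins with the offsets, to −0.96 ± 0.13 (adjusted p = 0.00196), a call that held in all 6 offset fits with a library left out (−1.05 to −0.86), and upper-quartile scaling put it at 0.01. At 40.6% GC it is, after Cldn1, the member poorest in G and C.

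Among the 10 collecting duct principal cell markers tested, 7 fell and none rose (median log2 fold change −0.64). Over all tested genes 24.2% were called lower and 22.7% higher. None of these markers was called higher by DESeq2 or at an unadjusted p under 0.05. Their summed level was 914 to 1148 CPM in the controls and 558 to 712 CPM in the knockouts, and all 10 were counted in every library. The steepest was Tfcp2l1, a transcription factor of collecting duct cells, which fell by 1.38 on the log2 scale. Scnn1g, the gamma subunit of the epithelial sodium channel, fell by 0.74. Upper-quartile scaling left 4 of these markers lower. Under it the median log2 fold change over all tested genes moved from 0.03 to 0.19, and 60.5% of all calls were higher against 48.4%. Without control 1, KO 1, KO 2 or KO 3, 3 of them were lower in each case.

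**Figure D2:**
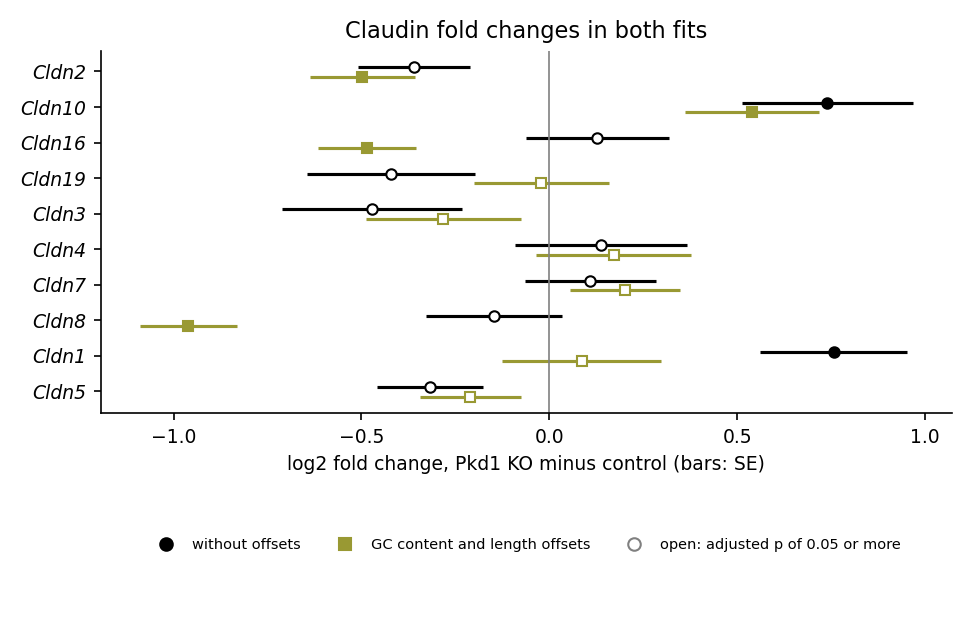
Log2 fold change (Pkd1 KO minus control) of each claudin with its standard error in edgeR, without offsets (black circles) and with offsets for GC content and exon length (olive squares); open symbols have an adjusted p of 0.05 or more. Cldn10 is past the threshold in both, Cldn1 moves from 0.76 to 0.09 and Cldn8 from −0.15 to −0.96.

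Cldn1, known in the kidney from the parietal epithelium of Bowman's capsule and elsewhere as the barrier claudin of the skin, rose. It had 14.2, 24.0 and 17.9 CPM in the controls and 29.4, 31.5 and 33.97 CPM in the knockouts. All 3 knockouts lay above all 3 controls, and they were closer to each other than the controls were. Means were 18.7 ± 4.95 and 31.6 ± 2.30 CPM (SD, n = 3 each), 1.69-fold higher, with a log2 fold change of 0.76 ± 0.20 (95% interval 0.31 to 1.20, adjusted p = 0.0135 in edgeR). The call ended with the offsets, at 0.09 ± 0.21 (adjusted p = 0.778). It was also lost without control 1 (0.56, adjusted p = 0.0645), KO 2 (0.76, 0.0502) or KO 3 (0.70, 0.0532). Cldn1 has 4841 exonic bases at 39.0% GC, the longest of the 10 and the poorest in G and C.

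The window before the Cldn1 start is shown because this gene was called higher. It is 55.6% G and C, unlike the transcript, and holds GGGCGG 2 times (in capitals), both close to the start.
Cldn1, chr16:26371840-26372089 (−): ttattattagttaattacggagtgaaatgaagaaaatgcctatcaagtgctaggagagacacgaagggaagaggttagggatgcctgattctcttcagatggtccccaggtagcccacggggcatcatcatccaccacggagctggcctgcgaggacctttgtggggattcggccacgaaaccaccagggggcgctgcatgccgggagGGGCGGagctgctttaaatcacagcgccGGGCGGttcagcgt
Of the 12 windows that the RefSeq table gave for the claudins, 8 hold GGGCGG, 2 hold CAGGTG and 1 holds TATAAA. Over all windows of the genome the shares were 32.7%, 17.2% and 12.4%. The 12 are not independent: Cldn7, Cldn10 and Cldn19 gave 2 windows each, and those of Cldn19 overlap and share their GGGCGG sites. Cldn8 had no window.

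Of the 12 parietal epithelium and podocyte markers tested, 6 fell and none rose, with a median log2 fold change of −0.57. The share called, 50%, was near the 46.9% over all tested genes. DESeq2 called none higher, and 1 was higher at an unadjusted p under 0.05. Their summed level was 411 to 607 CPM in the controls and 352 to 363 CPM in the knockouts, and all 12 were counted in every library. Nphs1, which encodes the slit diaphragm protein nephrin, fell by 1.46 and Synpo, the podocyte actin-binding protein synaptopodin, fell by 1.09 on the log2 scale. Both calls ended with the offsets, at −0.46 (adjusted p = 0.246) and 0.22 (adjusted p = 0.195). Of the 12 markers 3 were then lower and 1 higher, where 17.3% of all genes were called lower and 17.1% higher. The Nphs1 call was also lost without control 1 (−1.42), KO 1 (−1.41), KO 2 (−1.55) or KO 3 (−1.42), and 3 markers were lower without control 1, KO 1 or KO 3.

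Cldn5, the claudin of endothelial junctions, had 12.5, 12.2 and 11.2 CPM in the controls and 9.80, 9.87 and 9.15 CPM in the knockouts. The groups did not overlap and were both narrow. The log2 fold change was −0.32 ± 0.14 and did not pass the test (adjusted p = 0.0924 in edgeR). Without control 3 it was −0.41 and passed (adjusted p = 0.0372), and with the offsets it was −0.21 (adjusted p = 0.249). Of 12 endothelial markers 9 fell and 2 rose (median log2 fold change −0.70), where 24.2% of all tested genes were called lower and 22.7% higher. The summed level of these markers was 825 to 908 CPM in the controls and 581 to 604 CPM in the knockouts. Flt1, a receptor for vascular endothelial growth factor, fell by 1.20 and Cdh5, the endothelial cadherin, fell by 1.09, while Egfl7, a secreted endothelial protein, rose by 0.80 and Emcn, the sialomucin endomucin, rose by 0.58. With the offsets 3 of the 12 endothelial markers were lower and 1 higher, where 17.3% of all genes were called lower and 17.1% higher. Emcn then stood at 0.13 (adjusted p = 0.434 in edgeR). The Emcn call was also lost without control 1 (0.53), KO 1 (0.59), KO 2 (0.57) or KO 3 (0.57), and the Flt1 call was lost with the offsets (−0.32, adjusted p = 0.0554), with them in the fit with a replicate block (−0.32, adjusted p = 0.0981) and with them in 5 of the 6 fits that left out a library (−0.38 to −0.26), all but that without control 2.

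**Figure D3:**
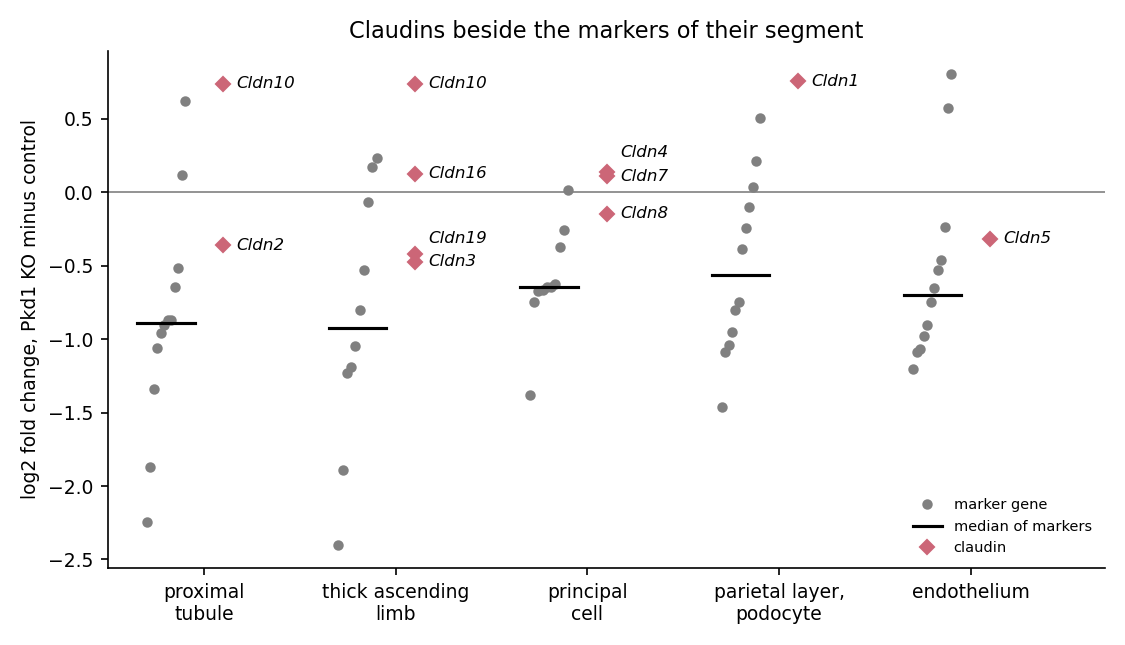
Log2 fold change (Pkd1 KO minus control) of the markers of each segment or cell type (grey points, with their median as a bar) and of the claudins known from it (red diamonds). Each claudin lies above its markers' median, Cldn5 by the least, and the marker medians lie between −0.92 and −0.57.

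Set against the markers of its own segment within each library, every claudin had a higher mean in the knockouts as long as the GC content and length trend was left in. The measure was the log2 CPM of the claudin minus the mean log2 CPM of its markers, compared by an exact permutation test over the 6 libraries for 11 such values. The marker lists themselves fell, with median log2 fold changes of −0.92 to −0.57. A gene with no change would thus also come out higher. The share of all genes that do so was not computed, so the p-values do not single out the claudins. Cldn10 was −2.17, −2.78 and −1.33 relative to the proximal tubule markers in the controls and −0.50, −0.53 and −0.41 in the knockouts, a difference of 1.62. Relative to the thick ascending limb markers it differed by 1.62 as well. Cldn1 differed by 1.25 relative to its markers, Cldn16 by 0.98, Cldn4 by 0.75, Cldn7 by 0.73, Cldn8 by 0.48, Cldn2 by 0.47 and Cldn5 by 0.21. For each of these the groups were apart (exact permutation p = 0.1, the smallest possible, adjusted p = 0.122). Cldn19 differed by 0.42 (exact permutation p = 0.2) and Cldn3 by 0.40 (exact permutation p = 0.4), with groups that overlapped.

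With the trend taken off each library first, Cldn10 kept a difference of 1.21 and 1.34 against the proximal and thick ascending limb markers, again with groups apart. Cldn4 and Cldn7 kept 0.75 and 0.79, and Cldn19 had 0.75. Cldn2 shrank to 0.15 and Cldn16 to 0.28, and Cldn8 turned to −0.38. For each of these the groups were apart (exact permutation p = 0.1, adjusted p = 0.1375). Groups overlapped for Cldn3 at 0.52 (exact permutation p = 0.2), Cldn1 at 0.21 and Cldn5 at −0.05 (exact permutation p = 0.7 for both). The marker medians stayed below 0 in the offset fit, at −0.94 to −0.11, and the same limit holds. The proximal tubule, thick ascending limb and principal cell lists had medians of −0.94 to −0.59. The parietal epithelium and podocyte list (−0.17) and the endothelial list (−0.11) lay nearer 0. Each of these 12-marker lists had 3 called lower and 1 higher, where 34.5% of all genes were called. Taking the trend off was chosen after seeing the data.

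Per kilobase of exon, the only scale on which levels of different genes are compared here, the claudins of the controls spanned a wide range. Cldn2 stood first at 166 ± 12.7 CPM per kilobase, before Cldn10 at 102 ± 32.99 and Cldn8 at 48.4 ± 10.3 (SD, n = 3 each), and these 3 did not overlap with each other or with the rest. Then came Cldn4 (14.7), Cldn7 (12.2), Cldn3 (11.4), Cldn16 (10.4) and Cldn5 (8.46), each overlapping with the next, then Cldn19 (6.74) and Cldn1 (3.86), which also overlapped. In the knockouts Cldn10 stood first at 171 ± 13.1 CPM per kilobase, before Cldn2 at 129 ± 12.1 and Cldn8 at 43.7 ± 5.45, again without overlap. Cldn4 (16.2), Cldn7 (13.1) and Cldn16 (11.4) followed, then Cldn3 (8.25), Cldn5 (6.79), Cldn1 (6.53) and Cldn19 (5.04), with overlap from each of these last 4 to the next. Cldn1 thus stood last in the controls and ahead of Cldn19 in the knockouts, where those neighbours did not differ beyond their spread. The Cldn19 levels here leave out the 18.2% of its reads lost in the column that ignores strand.

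As a share of the summed level of the 10 claudins per kilobase, Cldn2 was 46.7%, 47.9% and 36.4% in the controls and 33.2%, 32.1% and 29.1% in the knockouts. Cldn10 was 25.2%, 21.4% and 31.8% in the controls and 43.2%, 41.2% and 40.0% in the knockouts. The groups did not overlap for either gene. Mean shares moved from 43.7 ± 6.30% to 31.5 ± 2.13% for Cldn2 and from 26.1 ± 5.22% to 41.5 ± 1.61% for Cldn10 (SD, n = 3 each). Together with Cldn8, at 12.5% and 10.7%, they held most of the claudin signal in every library. Without scaling to length, the mean shares of counts in the knockouts were 38.5% for Cldn2 and 39.5% for Cldn10. In KO 2 they were nearly level, at 422 CPM for Cldn2 and 421 CPM for Cldn10. Cldn10 thus had the higher mean share on both scales. The size of its lead rests on the exon length used, which for Cldn10 is the union of its variants.

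**Figure D4:**
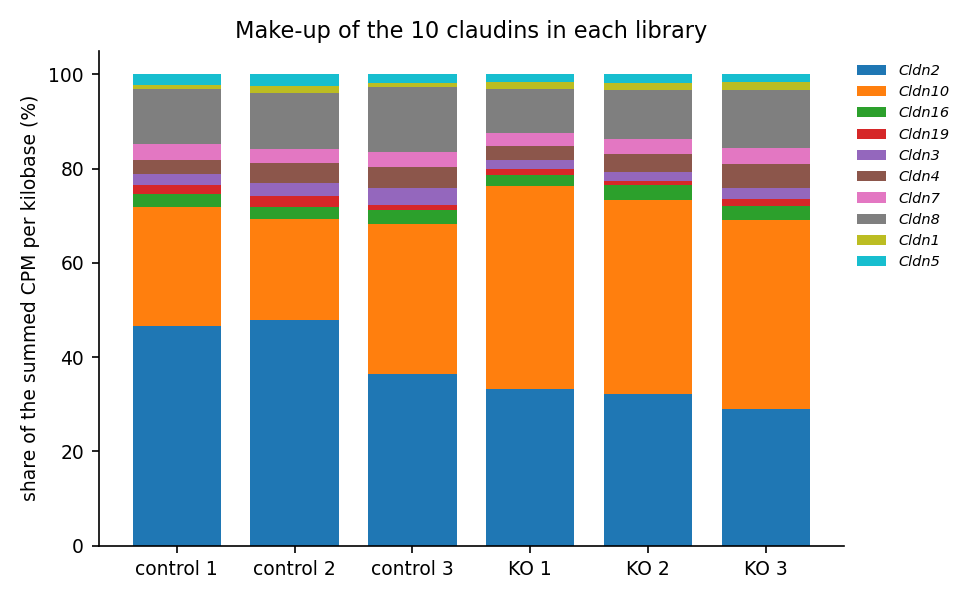
Share (%) of each claudin in the summed CPM per kilobase of the 10 claudins, 1 bar per library. Cldn2 (bottom) is the largest share in the 3 controls and Cldn10 (second from the bottom) in the 3 Pkd1 KO libraries.

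Pairs of claudins that meet in the same segments gave smaller shifts of their ratio than Cldn2 and Cldn10, with the GC content and length trend left in. That order need not hold without the trend. With the offsets, Cldn4 changed by 0.17, Cldn7 by 0.20 and Cldn8 by −0.96, against −0.50 for Cldn2 and 0.54 for Cldn10. The log2 ratio of Cldn3 to Cldn4, neighbours on chromosome 5 with no coding gene between them, was −0.88, −1.10 and −0.76 in the controls and −1.12, −1.66 and −1.67 in the knockouts. The groups were just apart, with a difference of −0.57 (exact permutation p = 0.1, adjusted p = 0.2). The ratios of Cldn4 to Cldn8 and of Cldn7 to Cldn8 differed by 0.27 and 0.25 with overlapping groups (exact permutation p = 0.2 for each). Cldn1 and Cldn16, which are neighbours on chromosome 16 with no coding gene between them, had log2 fold changes of 0.76 and 0.13. Cldn5 and Cldn8 lie on the same chromosome, with 76 and 300 coding genes between them and Cldn1.

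Of the other claudins, 9 were tested, 13 had too few counts and 3 symbols matched no identifier. Cldn12, a claudin without the usual binding motif for scaffold proteins, was the most abundant of them and the only one that edgeR called, where DESeq2 and upper-quartile scaling called 2, Cldn12 and Cldn18. It had 120.3, 104 and 164 CPM in the controls and 209, 210.4 and 197 CPM in the knockouts, with all 3 knockouts above all 3 controls. The log2 fold change was 0.67 ± 0.18 (adjusted p = 0.0168 in edgeR), and it was 0.36 with the offsets (adjusted p = 0.0730), 0.59 without control 1 (0.0757), 0.65 without KO 1 (0.0577) and 0.65 without KO 2 (0.0660). None of the 9 was called lower, by edgeR, by DESeq2 or at an unadjusted p under 0.05. Cldn15, a cation pore known from the intestine, had 8.82 to 13.5 CPM in the controls and 12.6 to 16.9 CPM in the knockouts (0.30 ± 0.20, adjusted p = 0.249). Cldn18, the claudin of stomach and lung, was low, at 0.85 to 1.71 CPM against 1.77 to 2.26 CPM, with groups apart (0.84 ± 0.31, adjusted p = 0.0534), and it passed in DESeq2 (0.82, adjusted p = 0.0327), with upper-quartile scaling (0.99, 0.0351), with no filter on low counts (0.84, 0.0347), in the first strand column (1.08, 0.0211) and without control 3 (1.19, 0.00434).

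The remaining tested claudins lay near or below 1 CPM in most libraries. Cldn14, a thick ascending limb claudin that blocks the cation route, had 0.05 to 0.31 CPM in the controls and 0.10 to 0.32 CPM in the knockouts (adjusted p = 0.784). Cldn11, known from myelin and testis, ranged from 0.23 to 2.87 CPM in the controls and from 0.08 to 1.499 CPM in the knockouts, with overlapping groups (−1.70 ± 1.01, adjusted p = 0.194), and it was called lower without KO 3 (−3.84, adjusted p = 0.0281), with a replicate block (−2.08, 0.0306), with block and offsets (−2.39, 0.0212) and with no filter on low counts (−1.69, 0.00643). Cldn6 (0.03), Cldn9 (0.72), Cldn23 (−0.07) and Cldn34c1 (0.73) did not pass the test (adjusted p from 0.154 to 0.944 in edgeR), and the direction of Cldn23 turned with upper-quartile scaling (0.08) and without control 3 (0.33) or KO 2 (0.16), that of Cldn6 with the offsets (−0.15).

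Of 30 tight junction partners 14 fell and 2 rose, with a median log2 fold change of −0.46 against 0.03 over all tested genes. The share called, 53.3%, was near the 46.9% over all tested genes. With the offsets 8 fell and 4 rose, where 34.5% of all genes were called, and the median was −0.12. The 2 that fell furthest are both cytoplasmic plaque proteins. Cgnl1 (paracingulin) had 340.1, 614 and 169.8 CPM in the controls and 69.2, 82.0 and 83.7 CPM in the knockouts, and Patj, a scaffold of the Crumbs polarity complex, had 63.1, 123 and 44.4 CPM in the controls and 25.4, 27.7 and 24.2 CPM in the knockouts. Control 2 was the highest library for each, and it is also the library farthest from the knockouts on the first principal component of all genes. Cgnl1 changed by −2.26 ± 0.39 (adjusted p = 0.00340 in edgeR) and by −1.44 with the offsets, and Patj by −1.58 ± 0.33 (adjusted p = 0.00564) and by −0.65 with the offsets. The Patj call with the offsets was lost without KO 1, KO 2 or KO 3 (−0.70 to −0.60).

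The 2 partners that rose are both membrane proteins of the immunoglobulin superfamily. Igsf5, a junctional adhesion molecule of kidney and intestinal epithelium, had 26.7, 21.5 and 35.6 CPM in the controls and 59.5, 63.1 and 55.2 CPM in the knockouts. The groups were well apart, with a log2 fold change of 1.08 ± 0.19 (adjusted p = 0.00343 in edgeR) and 0.80 with the offsets (adjusted p = 0.00354). Jam3, a junctional adhesion molecule, had 17.9, 16.5 and 19.7 CPM in the controls and 32.9, 34.9 and 31.0 CPM in the knockouts. It changed by 0.87 ± 0.14 (adjusted p = 0.00280) and by 0.60 with the offsets (adjusted p = 0.00442). Both kept their calls in every alternative run. The symbol Igsf5 matched 2 identifiers. Its values are those of a single identifier, chosen as protein-coding first and then as most counted, and the other is not described here.

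**Figure D5:**
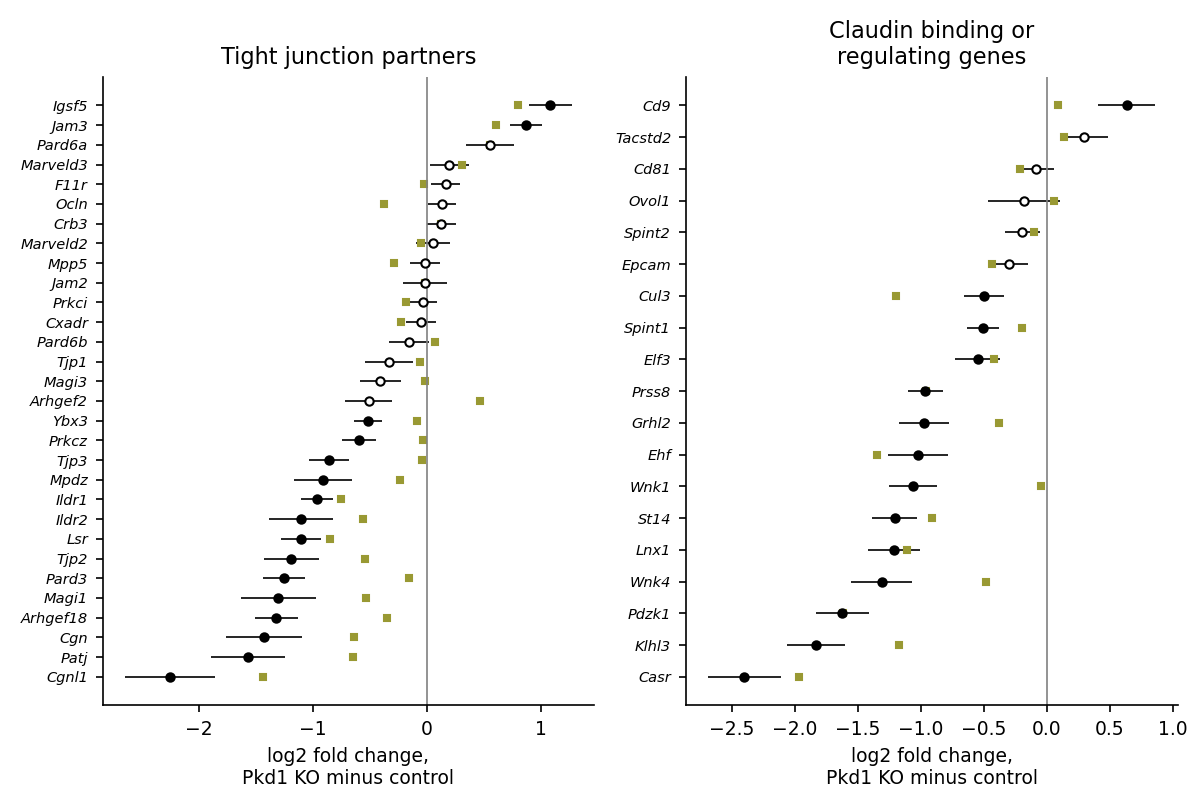
Log2 fold change (Pkd1 KO minus control, circles with standard error, open where the adjusted p is 0.05 or more) of 30 tight junction partners and 19 claudin binding or regulating genes; olive squares give the fit with offsets for GC content and exon length. Igsf5 and Jam3 stand to the right of 0 in both fits, and Cgnl1 and Casr lie farthest to the left.

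Genes that bind or regulate claudins also fell more often than they rose. Of 19 tested, 13 fell and 1 rose (median log2 fold change −0.96), where 24.2% of all tested genes were called lower and 22.7% higher. With the offsets 10 fell and none rose (median −0.43), where 17.3% of all genes were called lower and 17.1% higher. Klhl3, the ubiquitin ligase adaptor that targets claudin-8 and the WNK kinases, had 46.9, 69.9 and 36.3 CPM in the controls and 14.98, 14.0 and 14.1 CPM in the knockouts. The groups were far apart, at −1.83 ± 0.23 (adjusted p = 0.00234 in edgeR) and −1.17 with the offsets (adjusted p = 0.00160). Casr had 45.6, 67.0 and 29.7 CPM in the controls and 10.05, 7.33 and 9.61 CPM in the knockouts, and was at −1.96 with the offsets (adjusted p = 0.00148). Cd9, a tetraspanin that binds claudins, was the member that rose (0.63 ± 0.23, adjusted p = 0.0463), with groups that overlapped and a value of 0.09 with the offsets (adjusted p = 0.688). Its call was lost without any of control 1 (0.54), control 2 (0.43), KO 1 (0.74), KO 2 (0.61) or KO 3 (0.54).

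Genes with the closest pattern were looked up among 12946 protein-coding genes, by the root mean square difference of log2 CPM centred over the 6 libraries. For Cldn10 the closest were Clybl (0.03), Gtf3a (0.04) and Mrpl58 (0.04), against a median of 0.58 over all genes. For Cldn2 they were Syngr2 (0.02), Rtf2 (0.03) and Stxbp4 (0.04), with a median of 0.37. For Cldn1 they were Hnrnpdl (0.09), Atp5l (0.09) and Dennd2c (0.09), with a median of 0.57. For Cldn8 they were Pcolce2 (0.07), Ropn1l (0.07) and Fbxo44 (0.08), with a median of 0.41. Among the claudins themselves the closest pair was Cldn2 and Cldn5 (0.07) and the farthest was Cldn10 and Cldn19 (0.79). These distances describe 6 libraries that differ in genotype and project at once.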

How the data were processed

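The deposited values are raw counts of reads per gene in 7 tables, one for each run, not normalized by the authors. They have the layout of STAR's gene counts. Tools named by the submitters' processing notes are STAR 2.6.1e, cutadapt 4.0 and FastQC 0.11.8, with genome build GRCm39. Neither the annotation nor the libraries' strandedness is given in the sources used here. Strand columns split evenly (49.1% to 50.0% on the first), which led to the use of the unstranded column, where reads from overlapping genes of both strands cannot be told apart. The 4 lines that name no gene held 22.9% to 23.8% of reads in the controls and 25.3% to 26.3% in the knockouts. They stayed out of library sizes. Symbols, exon lengths and GC content came from GENCODE M21, an older build, joined by identifier (52073 of 56923 matched), and no gene coordinates from it are printed.

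Groups were compared by the quasi-likelihood test of edgeR 4.0.16 (R 4.3.3) with filterByExpr, TMM scaling and Benjamini-Hochberg adjustment over 18273 genes. CPM are counts scaled to the TMM library size, and log2 CPM use a prior count of 2. A second fit, over 17785 genes with both properties, entered as offsets a loess surface per library (span 0.3, local linear, robust) on GC content and log2 exon length; a real change shared by genes of like structure would be removed too. Ratios and segment differences were tested by exact permutation of the 6 libraries, two-sided, where the smallest p is 0.1. DESeq2 1.42.0, other scaling, filters, strand columns, a replicate block and leaving out each library were the alternatives. Scripts were tested on simulated counts.

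The 10 claudins, the 14 other gene lists and the tests were chosen with earlier results of these data known. Named are all 10 claudins, the other claudins that were tested, Pkd1 and, of each further list described, up to 2 called genes per direction with the largest change, as well as the 3 genes closest in pattern for 4 claudins.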

Additional observations from a re-analysis of the deposited data

How the results depend on the processing

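Claudins called higher numbered 1 with the GC content and length offsets, 1 with these and a replicate block, and 0 with offsets from a local quadratic loess, an alternative added after seeing the data; claudins called lower numbered 3 in each of these fits and 1 in DESeq2. Leaving out single libraries, without and with the offsets (the latter added after seeing the data), gave 0 to 2 claudins higher and 0 to 3 lower. Tight junction partners called lower numbered 8 with the offsets, 7 with offsets and block and 9 with the quadratic loess, against 14, and 3 to 17 with single libraries left out. The number of all genes called, 8579, was 6128 with the offsets, 5403 with offsets and replicate block, 5071 (without KO 2) to 10318 (without control 3) when libraries were left out, and 2825 at the lowest with offsets as well. The replicate block alone left 7397 calls and the same counts of claudins, 2 higher and 0 lower. Same-numbered samples did not deviate together (correlations of 0.04, −0.08 and −0.03) more than differently numbered ones (−0.10 to 0.10). The labels do not say whether the numbers pair the kidneys, and these correlations cannot decide it.

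Directions turned as follows, and the cause was not tested. Cldn16 stood at −0.49 with the offsets, −0.49 with offsets and replicate block and −0.54 with the quadratic loess, against 0.13. Cldn8 turned only with upper-quartile scaling (0.0086). Synpo turned to 0.22 with the offsets, 0.22 with offsets and block and 0.050 with the quadratic loess. Over the fits that left out 1 library, without and with the offsets, the log2 fold change ranged from −0.073 to 0.95 for Cldn1, −0.076 to 0.34 for Cldn4, −0.061 to 0.31 for Cldn7, −0.54 to 0.25 for Cldn16, −0.65 to 0.10 for Cldn19, −0.072 to 0.74 for Slc5a12, −0.020 to 0.86 for Cd9 and −1.38 to 0.32 for Synpo. Among claudins of low count the same ranges were −0.39 to 0.31 for Cldn6, −0.28 to 1.01 for Cldn14, −0.49 to 0.33 for Cldn23 and −0.23 to 1.13 for Cldn34c1. Of these, Cldn6 also turned to −0.15 with offsets, −0.090 with offsets and block, −0.21 with the quadratic loess and −0.13 in the first strand column, and Cldn23 to 0.078 with upper-quartile scaling, 0.012 with the block and 0.36 in the second strand column. Relative to their segment markers, with the GC content and length trend taken off, Cldn8 turned to −0.38 and Cldn5 to −0.054, and Cldn1 moved to 0.21, Cldn2 to 0.15 and Cldn16 to 0.28.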

Other observations

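Markers of the cell types to which no claudin of the set was assigned were counted in the same test. Of the 8 distal convoluted tubule markers 7 fell and none rose, with a median log2 fold change of −1.18, and DESeq2 and an unadjusted p under 0.05 gave none higher either. Of 10 intercalated cell markers 6 fell and 1 rose (median −0.97), and of the 8 thin limb markers tested 2 fell and 1 rose (median −0.10). Macrophage markers were the other way, with 6 of 10 higher and 1 lower (median 0.72), and so were injured tubule markers, with 6 of 9 higher and 1 lower (median 0.67). Fibroblast and pericyte markers were mixed, with 4 of 10 higher and 3 lower (median 0.53). With the offsets for GC content and exon length, higher and lower calls numbered 0 and 8 in the distal convoluted tubule, 1 and 6 in intercalated cells, 0 and 2 in the thin limb, 6 and 1 in macrophages, 4 and 1 in injured tubule and 3 and 1 in fibroblasts and pericytes. Without KO 2, 3 macrophage, 3 injured tubule and 2 fibroblast and pericyte markers were higher, and without KO 3 also 2 of the fibroblast and pericyte markers. The thin limb count of higher markers was 0 without control 1, KO 2 or KO 3 and 2 without control 3, and its count of lower markers was 1 without control 1, KO 1 or KO 2. The edgeR test called 46.9% of all tested genes, and the fit with offsets called 34.5% of its 17785 genes.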
